A study of Rattus norvegicus with 32 samples.

Results

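Muscle RNA of 8 obese Zucker rats fed flaxseed oil was compared with that of 8 lean Zucker rats fed a control diet. These 16 arrays were taken, by their titles, from a study of 32 male rats in 4 groups of 8, each with 1 array from the red tibialis anterior, a portion rich in oxidative fibres of the muscle at the front of the lower hindlimb. The lean controls were Zucker lean rats that ate AIN-93G, a purified rodent diet, without restriction. The obese ALA rats were Zucker obese rats whose AIN-93G diet held 10% flaxseed oil, an oil rich in alpha-linolenic acid, and which were pair-fed to the calorie intake of the obese controls. The obese controls ate AIN-93G without restriction, and the obese LA rats were pair-fed AIN-93G with 10% safflower oil. All rats arrived at 5 weeks of age, were fed for 12 weeks and were 18 weeks old by their labels. The lean and ALA groups therefore differed in genotype, in diet and in the way the food was given, and the effects of these 3 cannot be told apart in this comparison. The labels name no litter or cage, and p-values judge a difference against the spread between the rats sampled within groups, pooled over the 4 groups.

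Obese Zucker rats lack a working leptin receptor, overeat and become obese and insulin resistant early in life. Red muscle of lean rats burns fatty acids and holds slow fibres, whose myosin, troponins and calcium pump differ from those of fast fibres. Fatty acids that reach muscle are ligands of the PPAR nuclear receptors, which raise the transcription of genes for fatty acid handling, and growth hormone acts on muscle through the kinase JAK2 and the transcription factor STAT5, whose targets include feedback inhibitors of the same pathway.

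In the obese ALA rats, 6 of 16 tested PPAR targets and 5 of 21 genes of beta-oxidation passed the test as higher than in lean rats. Of 11 tested slow-fibre genes 5 passed as lower, as did the feedback inhibitors Cish and Socs2. Some genes of blood vessels passed as higher and others as lower. They were grouped after their values were seen, so the choice fixed their directions. In a separate list of endothelial markers all 8 tested were lower and 1 passed. Of 10918 genes tested, 97 passed limma's moderated test at an adjusted p below 0.05 and are referred to as called, which is 0.888% of the genes tested. Of these, 35 were higher (0.321%) and 62 lower (0.568%) in the ALA rats, and 1018 genes had an unadjusted p below 0.05. The higher genes made up 36.1% of the called genes, and 49.3% after a second quantile normalisation. The median log2 difference over all genes tested was -0.007, and 47% of genes were higher. Called differences ran from 0.25 log2 units upward in size, with a median of 0.57, and 19 reached 1 log2 unit, 8 of them higher and 11 lower. For 83 called genes all 8 ALA rats lay on the same side of the lean mean, and for the other 14 called genes 7 did. The groups did not overlap in 43 genes (0.394%), of which 16 lay above (0.147%) and 27 below (0.247%) every lean rat, and 19 of the 43 were called. All levels are log2 RMA intensities from the deposited table, so a difference of 1 stands for 2-fold, and levels of different genes are not compared because each has its own probes.

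The count of called genes rested on the arrays and on the model. It was 50 without ALA rat 7, 51 without lean rat 8, 52 without ALA rat 4, 55 without ALA rat 5, 57 without lean rat 4, 61 without lean rat 6 and 64 without ALA rat 6. The spread was estimated over all 32 arrays. With only the lean and ALA arrays in the fit 252 genes were called, and without 3 obese controls (4, 5 and 7) and 2 LA rats (7 and 8) the number was 243. Those arrays stood apart: the mean of stress and regeneration genes was 8.14 and 8.33 in obese controls 4 and 7, that of hepatocyte markers was 9.42 in obese control 5, and that of tendon markers was 8.32 and 6.53 in LA rats 7 and 8. In ALA rats these means reached at most 6.4, 4.84 and 6. Among lean rats the hepatocyte and tendon means reached at most 4.88 and 5.46. Lean rat 2, however, had a stress and regeneration mean of 7.97, against 6.44 or less in the other lean rats, and stayed in the fit with 243 calls. Over all features of the table, correlations between pairs of arrays ran from 0.966 to 0.992. The arrays were those of skeletal muscle: the mean of 6 muscle markers lay between 12.32 and 12.35 in lean and between 12.30 and 12.35 in ALA rats. In bulk tissue, fewer cells or fibres of a type and less RNA per cell cannot be told apart.

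**Figure D1:**
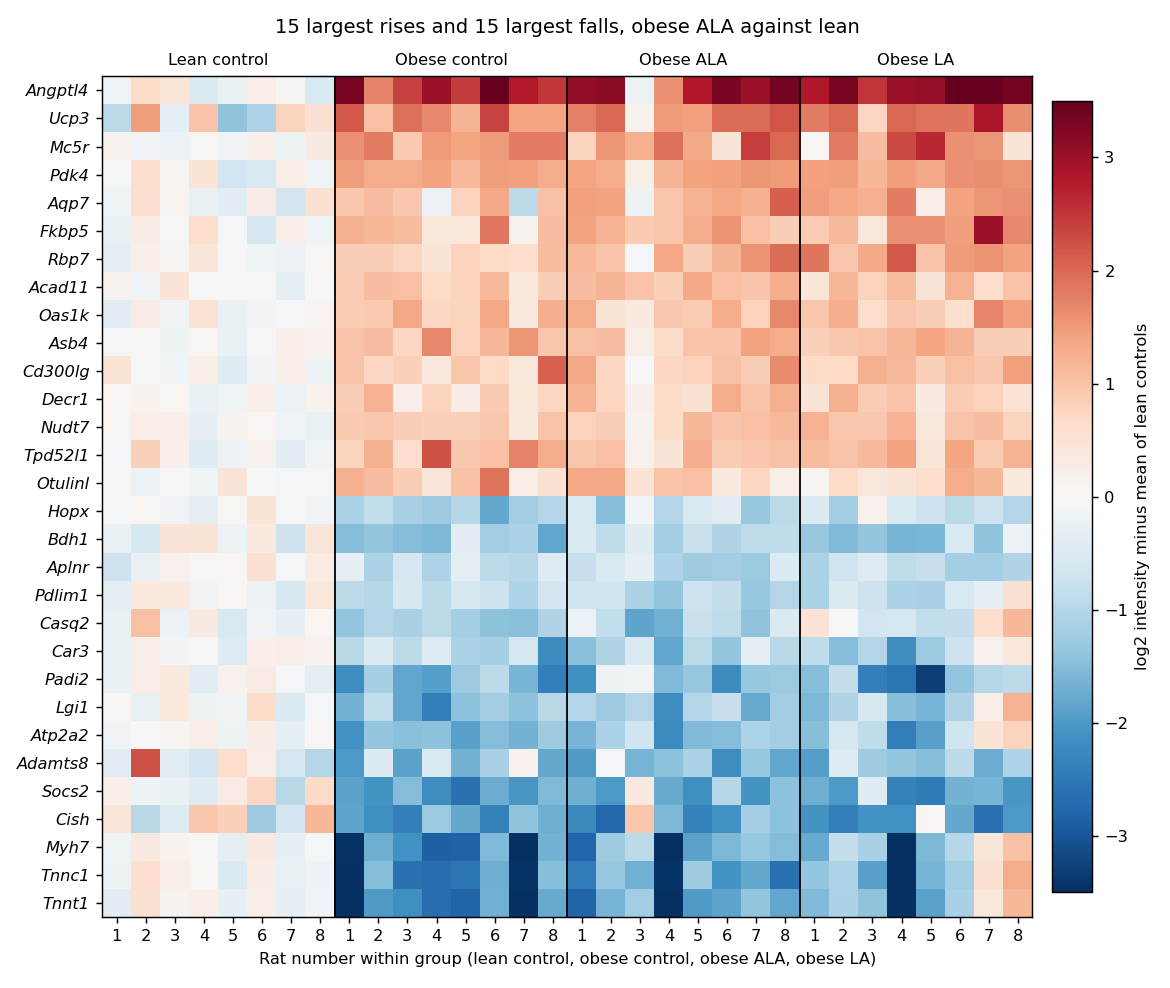
The 15 largest rises and 15 largest falls among called genes (vertical), with 1 column per rat in the 4 groups (horizontal). The colour gives the log2 intensity minus the mean of the 8 lean controls. ALA rat 3 is pale in Angptl4, Ucp3, Pdk4 and Rbp7 and pale red in Cish and Socs2. In the slow-fibre genes at the bottom it is pale blue to blue.

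Within the ALA group, 1 rat stood apart in some of these genes and not in others. ALA rat 3 had Angptl4 at 3.94 against 5.75 to 7.5 in the other 7 ALA rats, and Cish at 8.33 against 6.17 or less. Its Acad11 level lay above every lean rat. Its Myh7, Tnnt1 and Atp2a2 levels lay below every lean rat and were the highest of the ALA rats.

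Angptl4, Ucp3 and Pdk4, genes of fatty acid metabolism that PPAR receptors control, were among the largest rises. Angptl4 (feature 17834433) encodes a secreted inhibitor of lipoprotein lipase, the enzyme that frees fatty acids from circulating lipoproteins. Its level ran from 3.62 to 4.78, with a median of 4.12, in lean rats and from 3.94 to 7.5, with a median of 7.2, in ALA rats. All ALA rats except rat 3 lay above every lean rat. The means were 4.15 ± 0.41 in lean and 6.66 ± 1.24 in ALA rats (SD, n = 8 each), a rise of 5.73-fold (log2 2.52 ± 0.357 SE, limma adjusted p = 0.00012), and without rat 3 the difference was 2.91. Pdk4 (feature 17789572), the kinase that shuts down the pyruvate dehydrogenase complex and so spares glucose, ran from 9.59 to 10.87 (median 10.28) in lean and from 10.46 to 11.81 (median 11.65) in ALA rats. Again only rat 3 fell within the lean range. Pdk4 rose 2.37-fold, with means of 10.25 ± 0.45 in lean and 11.5 ± 0.44 in ALA rats (SD, n = 8; adjusted p = 1.29e-05 by limma), and its log2 difference of 1.25 was 1.39 without rat 3. Ucp3 (feature 17618739), a carrier of the inner mitochondrial membrane in muscle, varied widely among lean rats, from 6.54 to 9.41 with a median of 8.06. In ALA rats it ran from 8.09 to 10.15 with a median of 9.81, so the groups overlapped in rat 3 and in a second ALA rat at 9.40. Ucp3 rose 3.07-fold, with means of 7.96 ± 1.08 in lean and 9.57 ± 0.65 in ALA rats (SD, n = 8; adjusted p = 0.0114 by limma), and without rat 3 its difference was 1.83 (0.00153).

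Of 20 listed PPAR targets 16 were tested, 15 were higher in ALA rats and 6 were called, all higher, with a median log2 difference of 0.55 against -0.007 over all genes. Besides Angptl4, Pdk4 and Ucp3 these were Decr1, Ech1 and Acot2. Acot2, a mitochondrial acyl-CoA thioesterase, had a difference of 0.66 (limma adjusted p = 0.00821). It was picked out after its values were seen, and close paralogues could share its probe signal. The 1 member below the lean level, Plin2, a lipid droplet coat protein, was looked up after the values were seen and was not called. The mean over the 16 tested targets lay between 7.74 and 8.14 in lean rats, between 8.50 and 8.96 in 7 ALA rats and at 7.86 in ALA rat 3. Without that rat 12 members were called and the median was 0.62. The additional calls included Cpt1a, 1 of the enzymes that link fatty acids to carnitine, which was picked out after its values were seen. Without rat 3 Cpt1a was at 0.64 (limma adjusted p = 0.0206, and 0.0797 with that rat). The additional calls also included Plin5, the droplet protein of oxidative tissue, at 0.90 (limma adjusted p = 0.0131 without and 0.0587 with rat 3).

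Promoters from RefSeq (assembly GRCr8, 250 bases before to 50 after the start of the gene) were available for 4 of the 6 called PPAR targets: Angptl4, Pdk4, Ucp3 and Acot2. They were searched on both strands for AGGTCA, the core of the sites that PPAR and related receptors bind. The Ucp3 promoter is shown because it held 2 matches, in capitals, which begin 155 and 50 bases before the start. At least 2 matches occurred in 1.81% of the 33469 promoters of the assembly, and at least 1 in 16.2%. In the windows of Angptl4, Pdk4 and Acot2 these letters did not occur. A match is a description of the sequence, not a bound site.
Ucp3, chr1:164227660-164227959, plus strand: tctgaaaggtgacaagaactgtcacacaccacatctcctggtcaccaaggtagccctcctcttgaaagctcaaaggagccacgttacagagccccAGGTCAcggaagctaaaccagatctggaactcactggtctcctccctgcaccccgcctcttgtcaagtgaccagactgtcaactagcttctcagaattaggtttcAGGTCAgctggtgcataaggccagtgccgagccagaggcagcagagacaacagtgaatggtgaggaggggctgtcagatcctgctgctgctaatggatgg

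**Figure D2:**
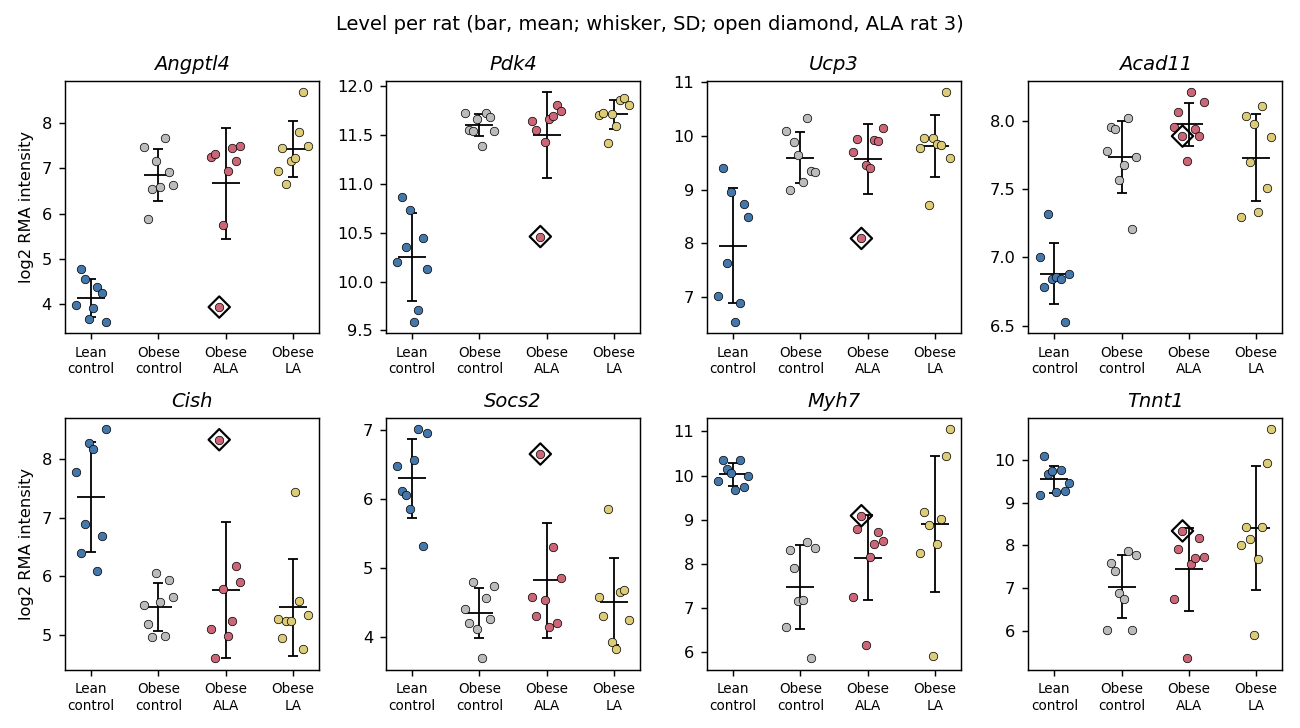
Log2 RMA intensity (vertical) of 8 genes in each rat of the 4 groups (horizontal), with the mean as a bar and the SD as whiskers (n = 8). ALA rat 3, in an open diamond, lies within the lean range for Angptl4, Pdk4, Ucp3, Cish and Socs2 and beyond every lean rat for Acad11 (above) and for Myh7 and Tnnt1 (below).

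Enzymes of beta-oxidation, which shortens fatty acids to acetyl-CoA, were slightly but widely higher. Of 21 listed genes, all tested, 20 were higher, 5 were called, all higher, and the median difference was 0.31. The called genes were Acadl, the long-chain acyl-CoA dehydrogenase (0.38, limma adjusted p = 0.000557), Hadha (0.38, 0.0115) and Hadhb (0.39, 0.0397), both subunits of the trifunctional protein, Eci1 (0.38, 0.0466) and Decr1. Hadhb did not overlap between the groups, at 10.24 to 10.68 in lean and 10.70 to 11.07 in ALA rats. Its call was lost in 13 and that of Eci1 in 14 of 16 fits that each left out 1 lean or ALA array (highest adjusted p 0.0883 and 0.117). The list mean lay between 9.18 and 9.39 in lean rats, at 9.23 in ALA rat 3 and between 9.48 and 9.76 in the other ALA rats, and without rat 3 the called members numbered 7 and the median was 0.36.

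Of 4 auxiliary enzymes for unsaturated chains, put together after the values were seen, 3 were called higher. Decr1, the mitochondrial reductase that acts on the double bonds of polyunsaturated chains, rose by 0.86 (1.81-fold), with means of 6.56 ± 0.17 in lean and 7.41 ± 0.40 in ALA rats (SD, n = 8; adjusted p = 0.0019 by limma). It ran from 6.34 to 6.78 (median 6.62) in lean and from 6.75 to 7.86 (median 7.44) in ALA rats, so that only rat 3 lay in the lean range, and without it the difference was 0.95. Ech1, a dienoyl-CoA isomerase, rose by 0.58 (limma adjusted p = 0.0019), and Eci1 and Eci2 are enoyl-CoA isomerases, with Eci2 at 0.53 (limma adjusted p = 0.0596) and at 0.63 (adjusted p = 0.00698) without rat 3. The differences of these 4 genes against lean rats were 0.38 to 0.86 in ALA rats, 0.25 to 0.67 in obese controls and 0.41 to 0.77 in LA rats. The 3 comparisons share the lean controls.

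Acad11 and Nudt7 gave some of the smallest p-values of the comparison. Acad11 (feature 17847108), an acyl-CoA dehydrogenase, ran from 6.53 to 7.32 (median 6.85) in lean and from 7.71 to 8.21 (median 7.95) in ALA rats. The groups did not overlap, and rat 3 was at 7.89. Acad11 rose 2.14-fold, with means of 6.88 ± 0.22 in lean and 7.98 ± 0.16 in ALA rats (SD, n = 8; log2 1.09 ± 0.119 SE, limma adjusted p = 1.35e-06), the smallest adjusted p of the 97. Nudt7, a hydrolase that breaks down coenzyme A in peroxisomes, rose by 0.85 (limma adjusted p = 0.000139), with lean rats at 6.55 to 7.07 and ALA rats at 6.94 to 7.98.

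Genes of fat delivery from the blood were split. In the list of fatty acid uptake, 5 of 11 tested genes were higher, the median was -0.02, and 1 gene was called in each direction. Gpihbp1, which holds lipoprotein lipase on capillary walls, ran from 5.77 to 6.56 (median 6.12) in lean and from 6.14 to 7.25 (median 6.90) in ALA rats. It rose by 0.66 (limma adjusted p = 0.00821), and by 0.76 without rat 3, the lowest ALA rat. Angptl2, a secreted protein of the angiopoietin-like family, fell by 0.46 (limma adjusted p = 0.0297), a call lost in 8 of the 16 left-out fits (highest adjusted p 0.0764). Without ALA rat 3, 6 of the 11 were called. Those picked out, after their values were seen, were the fatty acid transporter Slc27a1 (0.92, limma adjusted p = 0.0113, and 0.0526 with rat 3), the binding protein Fabp3 (0.49, 0.0206, and 0.0926 with it) and the receptor Cd36 (0.38, 0.0379, and 0.126 with it).

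Rbp7, Aqp7 and Cd300lg, which in mouse are made by capillary endothelium of fat or muscle, also rose. Rbp7, a small retinoid-binding protein, ran from 5.13 to 5.87 (median 5.42) in lean and from 5.36 to 7.39 (median 6.60) in ALA rats. It rose by 1.12 (2.17-fold, limma adjusted p = 0.000603), and only rat 3, at 5.36, lay in the lean range. Without it the difference was 1.29. Aqp7, a channel for glycerol, ran from 6.42 to 7.64 (median 7.05) in lean and from 6.90 to 9.17 (median 8.38) in ALA rats. It rose by 1.19 (2.28-fold, limma adjusted p = 0.0283), a call lost in 8 of the 16 left-out fits (highest adjusted p 0.062) and kept without rat 3 (1.39, adjusted p = 0.00277). Cd300lg, an endothelial membrane receptor, rose by 0.89 (limma adjusted p = 0.0126). It was dim in lean rats, at 3.59 to 4.50, close to the array medians of 3.83 to 3.99. In ALA rats it ran from 4.04, in rat 3, to 5.67. With Gpihbp1 these 4 genes differed from lean rats by 0.66 to 1.19 in ALA rats, by 0.57 to 0.88 in obese controls, where Aqp7 was not called (0.62, limma adjusted p = 0.278), and by 0.81 to 1.47 in LA rats. They were grouped after their values were seen.

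Fat storage and synthesis showed few calls. Of 13 lipid droplet and triglyceride genes 10 were higher with a median of 0.23, and 0 were called. Those nearest to the threshold were Plin5 (0.78, limma adjusted p = 0.0587) and Dgat1, which adds the last acyl chain to triglyceride (0.29, 0.0659). No gene of 14 for fatty acid synthesis (6 higher, median -0.08) or of 9 for cholesterol synthesis (7 higher, median 0.11) was called, and the elongase Elovl5 was at -0.33 (limma adjusted p = 0.272). Of 16 ceramide genes 14 were lower, with a median of -0.09. The called member was Kdsr, the reductase of an early step of sphingolipid synthesis, which fell by 0.48 (limma adjusted p = 0.0397; lost in 11 left-out fits, highest 0.105). Of 13 oxylipin genes 6 were higher with a median of -0.01, and 0 were called.

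Mc5r, Fkbp5 and Asb4 rose with no overlap between the groups. Mc5r, a melanocortin receptor, ran from 4.47 to 4.98 (median 4.63) in lean and from 5.11 to 7.09 (median 6.11) in ALA rats. It rose 2.75-fold (log2 1.46 ± 0.265 SE, limma adjusted p = 0.00234). Fkbp5, a co-chaperone of the glucocorticoid receptor that glucocorticoids induce, ran from 5.75 to 6.95 (median 6.29) in lean and from 7.19 to 7.89 (median 7.46) in ALA rats. It rose 2.24-fold (log2 1.16 ± 0.244 SE, limma adjusted p = 0.0115). All 15 tested genes of a list of glucocorticoid targets and muscle atrophy were higher, with a median of 0.29, but Fkbp5 was the only called member. Asb4, a substrate adaptor of ubiquitin ligases, ran from 5.32 to 5.73 (median 5.57) in lean and from 5.76 to 6.96 (median 6.57) in ALA rats, where rat 3 was the lowest. It rose by 0.96 (limma adjusted p = 0.000106), and by 1.07 without rat 3. Asb4 was the 1 called member of 15 ubiquitin adaptors, of which 7 were higher (median -0.01).

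The remaining large rises were in Oas1k, Tpd52l1 and Otulinl. Oas1k, of the interferon-induced oligoadenylate synthetase family, rose by 0.97 (limma adjusted p = 0.00234) while 14 of 15 tested interferon genes were lower, with a median of -0.14. Irf9, a subunit of the factor that switches these genes on, fell by 0.40 (limma adjusted p = 0.0438; lost in 11 left-out fits, highest 0.112). Tpd52l1, a small coiled-coil protein, rose by 0.85 (limma adjusted p = 0.0226), a call lost in 4 left-out fits (highest 0.0654). Otulinl rose by 0.82 (limma adjusted p = 0.0302), a call lost in 9 left-out fits (highest 0.0693). Otulinl was dim in lean rats, at 3.78 to 4.44, and ran from 4.20 to 5.36 in ALA rats.

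The largest falls were in slow-fibre genes. Tnnt1 (feature 17613189), slow troponin T, ran from 9.18 to 10.09 (median 9.56) in lean and from 5.36 to 8.34 (median 7.72) in ALA rats. The groups did not overlap. Tnnt1 was 4.32-fold lower, at 9.55 ± 0.32 in lean and 7.44 ± 0.97 in ALA rats (SD, n = 8; log2 -2.11 ± 0.442 SE, limma adjusted p = 0.0114). Tnnc1, the calcium-binding troponin of slow fibres and heart, ran from 8.52 to 9.62 (median 8.97) in lean and from 5.6 to 7.77 (median 7.09) in ALA rats and was 4.21-fold lower (limma adjusted p = 0.0124). Myh7 (feature 17702823), the slow myosin heavy chain, ran from 9.67 to 10.35 (median 10.03) in lean and from 6.17 to 9.09 (median 8.47) in ALA rats. It too did not overlap, and was 3.70-fold lower, but with an adjusted p of 0.0457 (limma) the call was lost in 15 of the 16 left-out fits (highest 0.123), and kept without ALA rat 3 (0.0332). Atp2a2, which pumps calcium back into the sarcoplasmic reticulum of slow fibres, ran from 9.69 to 10.25 (median 10.02) in lean and from 7.76 to 9.30 (median 8.64) in ALA rats, with no overlap, and was 2.60-fold lower (limma adjusted p = 0.0114).

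Casq2, the calcium-storing protein of slow and cardiac muscle, was 2.02-fold lower, at 7.83 to 9.43 in lean and 6.54 to 8.18 in ALA rats. Its call (limma adjusted p = 0.0452) was lost in 12 left-out fits, among them the fit without ALA rat 3 (-0.90, adjusted p = 0.0853), the lowest ALA rat for this gene. In all, 10 of 11 tested slow-fibre genes were lower, 5 were called, and the median was -1.02, or -0.90 without rat 3. The exception, looked up after the values were seen, was Pln, an inhibitor of the calcium pump, which was not called. After a second quantile normalisation, or with each array centred on its median, 3 were called, Tnnt1, Tnnc1 and Atp2a2. The list mean lay between 8.31 and 9.12 in lean rats and between 6.73 and 7.81 in ALA rats, with no overlap; ALA rat 4 was the lowest at 6.73, the next at 7.58, and rat 3 was at 7.81. Of 7 tested fast-fibre genes 5 were higher and 0 were called (median 0.09), and Actn3, the actinin of fast fibres, was at 0.15 (limma adjusted p = 0.732). In the LA rats the slow-fibre differences from lean were smaller in size and not called, with Tnnt1 at -1.14 (limma adjusted p = 0.206) and Casq2 at -0.09 (0.919), while in obese controls they were -2.52 (0.00118) and -1.20 (0.00707). LA rats 7 and 8 had slow-fibre means of 9.06 and 9.65, against 7.06 to 8.12 in the other LA rats. The ALA and LA groups did not pass the test against each other for Tnnt1 (adjusted p = 0.67) or Casq2 (0.46).

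Cish and Socs2, the feedback inhibitors that STAT5 induces after growth hormone or cytokine signals, were lower in 7 of 8 ALA rats. Socs2 (feature 17835345) ran from 5.32 to 7.01 (median 6.30) in lean and from 4.14 to 6.65 (median 4.56) in ALA rats. All ALA rats but rat 3 lay below every lean rat, the next highest at 5.30. Socs2 was 2.78-fold lower, at 6.30 ± 0.57 and 4.82 ± 0.83 (SD, n = 8; log2 -1.48 ± 0.288 SE, limma adjusted p = 0.00597), and the call was kept in each of the 16 left-out fits. Cish ran from 6.08 to 8.51 (median 7.33) in lean and from 4.61 to 8.33 (median 5.51) in ALA rats. Rat 3 was near the top of the lean range, and a second ALA rat, at 6.17, lay just inside it. Cish was 3.00-fold lower, at 7.35 ± 0.94 and 5.76 ± 1.16 (limma adjusted p = 0.049), a call lost in 12 left-out fits (highest 0.127) and after either rescaling of the arrays. Without rat 3 its difference was -1.95 (adjusted p = 0.00153) in place of -1.59, and that of Socs2 -1.74 (5.99e-05).

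The other 8 tested genes of growth hormone signalling were not called, and the list's median was 0.01. The RefSeq promoter of Cish was searched for TTCNNNGAA, the palindrome that STAT5 binds. It held 4 matches, in capitals, which begin 241, 230, 136 and 119 bases before the start. At least 1 match occurred in 8.87% of the 33469 promoters, and 4 or more in 2 of them (0.00598%). No promoter was available for Socs2, the other called gene of the list, so it was not searched.
Cish, chr8:116850719-116851018, plus strand: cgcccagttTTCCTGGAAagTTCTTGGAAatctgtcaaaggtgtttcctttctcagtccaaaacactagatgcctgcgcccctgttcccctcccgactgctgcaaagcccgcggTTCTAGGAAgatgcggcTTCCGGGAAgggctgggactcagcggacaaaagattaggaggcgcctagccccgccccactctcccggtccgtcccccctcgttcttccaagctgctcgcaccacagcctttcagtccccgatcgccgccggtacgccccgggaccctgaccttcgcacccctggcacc

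Further large falls were in Padi2, Lgi1, Adamts8, Car3, Pdlim1, Bdh1 and Hopx. Pdlim1, a PDZ and LIM domain protein of the actin cytoskeleton, ran from 8.15 to 9.11 (median 8.68) in lean and from 7.34 to 8.01 (median 7.77) in ALA rats. The groups did not overlap, and Pdlim1 was 1.96-fold lower (limma adjusted p = 0.0019). Lgi1, a secreted protein of synapses, did not overlap either, at 5.35 to 6.47 in lean and 3.64 to 5.00 in ALA rats (-1.29, limma adjusted p = 0.0217; lost without lean rat 6, ALA rat 4 or ALA rat 7, highest 0.0652). Padi2, which converts arginine in proteins to citrulline, was at -1.27 (limma adjusted p = 0.0397; lost in 11 left-out fits, highest 0.0913), with rats 2 and 3, at 9.21 and 9.27, inside the lean range of 8.98 to 9.72, and at -1.43 (adjusted p = 0.0113) without rat 3. Hopx, a small homeodomain protein, fell by 0.80 (limma adjusted p = 0.0149) and kept its call in the left-out fits.

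Car3, the carbonic anhydrase abundant in slow muscle and in fat cells, was at -1.06 (limma adjusted p = 0.0452; lost in 13 left-out fits, highest 0.113). Bdh1, which turns the ketone body hydroxybutyrate into acetoacetate, was at -0.83 (limma adjusted p = 0.0397; lost in 11, highest 0.0909) and was the 1 called member of 6 ketone and lactate genes, 5 of them lower (median -0.29). Adamts8, a secreted protease, was at -1.44 (limma adjusted p = 0.0397; lost in 10, highest 0.0913). Its fall rested on a single feature. The gene's other feature was at -0.09, but it was dim, with a mean level of 4.09 close to the array medians of 3.83 to 3.99. It could therefore show little of a fall. Lean rat 2, at 8.16 against a lean median of 5.55, set part of the lean mean. Without that rat Adamts8 was at -1.13 and not called (adjusted p = 0.0786). Gpx1, a glutathione peroxidase, fell by 0.43 with no overlap (8.49 to 8.83 in lean, 7.89 to 8.37 in ALA rats, limma adjusted p = 0.037; lost in 10, highest 0.0918), and of 15 antioxidant genes it was the 1 called.

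Further genes of blood vessels were called lower. Aplnr, the apelin receptor of endothelial cells, ran from 6.18 to 7.45 (median 6.98) in lean and from 5.6 to 6.59 (median 5.97) in ALA rats. The groups overlapped, and Aplnr was 1.83-fold lower (log2 -0.87 ± 0.163 SE, limma adjusted p = 0.00343). Bcl6b, Plxnd1, Nrp1, Cd93, Egfl7, Ecscr, Sox7, Pcdh12 and Meox2, which encode receptors, adhesion proteins and transcription factors of vessel lining, were called lower too. The 10 differences lay between -0.87 and -0.35, and the genes were put together after their values were seen, so that the choice fixed the direction. The calls of Aplnr, Bcl6b, Plxnd1 and Nrp1 were kept in each of the 16 left-out fits. The calls were lost in 14 of these fits for Egfl7, 12 for Sox7, 11 for Meox2, 9 for Ecscr, 7 for Pcdh12 and 6 for Cd93, with adjusted p-values of up to 0.119. The fits in which Egfl7 and Sox7 were lost included that without ALA rat 3 (adjusted p = 0.059 for both). In obese controls these 10 differed from lean by -0.72 to -0.18, and in LA rats by -0.92 to -0.18. All 8 tested endothelial markers of a list of their own were lower, with a median of -0.25, and Egfl7, a secreted protein of endothelium, was the 1 called (-0.45, limma adjusted p = 0.0457). The mean of these markers lay between 6.84 and 7.2 in lean and between 6.45 and 7.15 in ALA rats. The part of vessel cell number in the falls of these genes, and in the rises of Gpihbp1, Rbp7, Aqp7 and Cd300lg, was not tested.

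Other cell types gave few calls. Of 11 fibroblast markers 8 were lower (median -0.13), and Cd34, a surface protein of stromal and vessel cells, was called at -0.54 (limma adjusted p = 0.0284; lost in 8 left-out fits, highest 0.0776). Of 21 matrix and collagen genes 18 were lower with a median of -0.28, against -0.30 in obese controls and 0.12 in LA rats. The LA median includes LA rats 7 and 8, which stood apart in tendon markers and had matrix list means of 7.87 and 7.06. In the other LA rats this mean lay between 6.12 and 6.80, against 6.44 to 6.92 in lean rats. No matrix gene was called, the nearest being Col15a1, a collagen of basement membrane zones (-0.58, limma adjusted p = 0.0587), and Serpinh1, the collagen chaperone (-0.31, 0.0658). Of 9 adipocyte markers 6 were higher (median 0.08), and the 1 called, Car3, was lower. The smooth muscle list (4 tested, median -0.07), tendon (7, 0.08), satellite cell (4, -0.04), nerve (5, 0.05), T and NK cell (2, -0.02), neutrophil and mast cell (2, 0.07), red cell (4, 0.00) and hepatocyte lists (4, -0.02) had 0 called members.

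Macrophage markers were close to the lean level in the ALA rats. Of 12 tested, 9 were higher, 0 were called and the median was 0.07, against 0.27 in obese controls and 0.51 in LA rats. The obese control median includes arrays that stood apart: the list mean was 6.00, 5.58 and 6.22 in obese controls 4, 5 and 7. In the other obese controls it lay between 5.19 and 5.38, against 4.99 to 5.38 in lean and 4.98 to 5.53 in ALA rats. Among LA rats it ran from 5.31 to 6.32, the highest being LA rat 7. Lyz2, the lysozyme of macrophages, ran from 6.83 to 7.36 (median 7.11) in lean and from 6.27 to 7.93 (median 7.06) in ALA rats. Its difference from lean was 0.00 (95% interval -0.49 to 0.49, limma adjusted p = 0.998) in ALA rats and 1.00 in both obese controls (adjusted p = 0.0209) and LA rats (0.0231). Obese controls 4 and 7, which stood apart, were at 9.10 and 9.51, and the other 6 obese controls at 7.52 to 7.84. Without obese controls 4, 5 and 7 and LA rats 7 and 8, a setting chosen after seeing the data, the differences from lean were 0.58 in obese controls, no longer called (limma adjusted p = 0.137), and 0.97 in LA rats (0.00218). Between ALA rats and obese controls Lyz2 differed by -1 (interval -1.49 to -0.50, limma adjusted p = 0.348). It did not pass the test over all genes, nor without those arrays, where the difference was -0.57. Between ALA and LA rats Lyz2 differed by -1 (limma adjusted p = 0.46), and by -0.97 (0.0965) without those arrays, and passed in neither fit.

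Most lists of energy metabolism and signalling held no called gene. Of 18 tested genes of the tricarboxylic acid cycle and pyruvate dehydrogenase 9 were higher (median 0.00), and of 30 respiratory chain genes 9 were (median -0.01). Of 14 genes for glucose use and glycogen 9 were higher (median 0.03), of 20 for branched-chain amino acids 7 (median -0.02) and of 15 regulators of oxidative metabolism 5 (median -0.06). Of 18 insulin signalling genes 10 were higher (median 0.01), with Irs1, the insulin receptor substrate, at -0.62 (limma adjusted p = 0.306). Clock genes (10 tested, median -0.05), immediate early genes (20, -0.09), stress and regeneration genes (11, -0.25) and ER stress genes (13, 0.03) were not called either. The stress median ranged from -0.31 to -0.01 when arrays were left out in turn, and lean rat 2 had a list mean of 7.97 against 6.44 or less in the other lean rats. Altogether 26 of the 97 called genes belonged to at least 1 of the 27 pathway lists, 14 of them higher and 12 lower. A further 3 belonged to a cell type list alone, and 68 to no list. Decr1 was in both the PPAR and the beta-oxidation list. The pathway lists held 385 of the 10918 genes tested. Because they were chosen with earlier results of these data known, these counts are a description only.

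**Figure D3:**
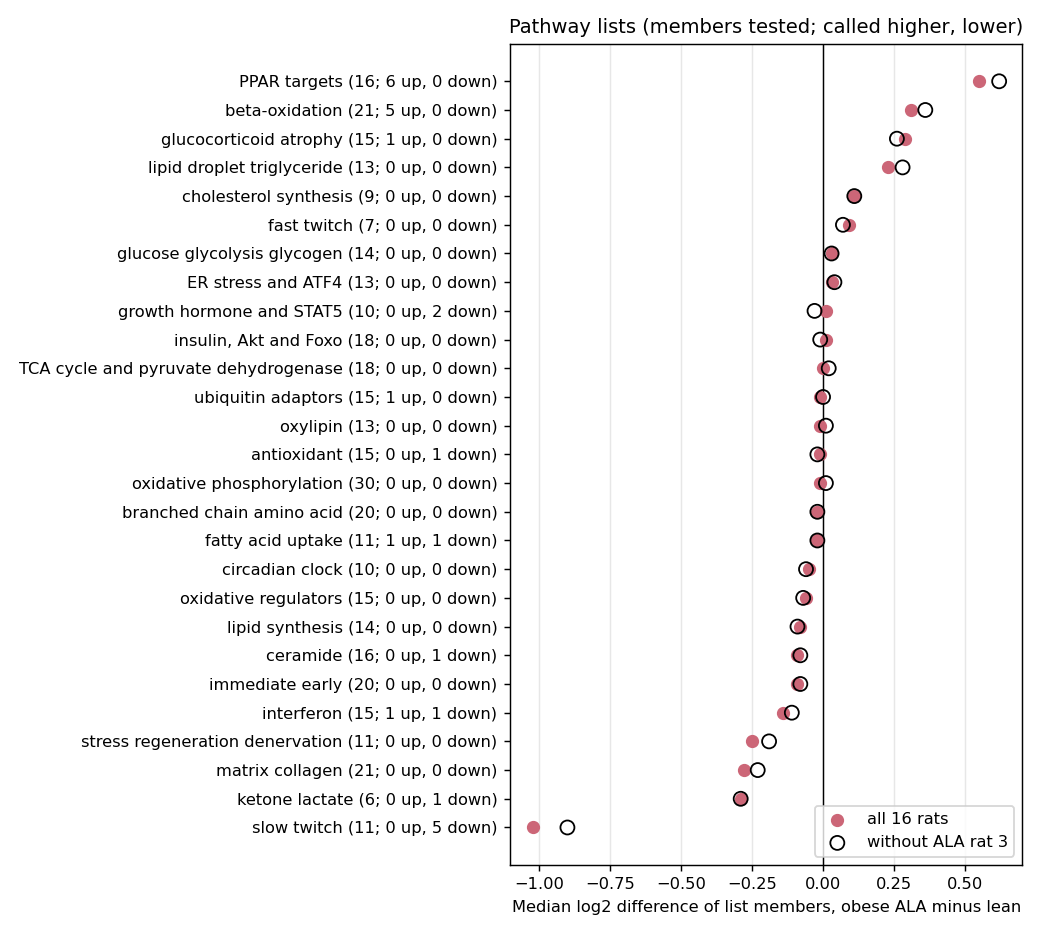
Median log2 difference, obese ALA minus lean, of the tested members of each of 27 pathway lists, with all 16 rats (filled) and without ALA rat 3 (open). The label gives the members tested and those called higher and lower; PPAR targets (0.55) and slow-fibre genes (-1.02) lie at the ends.

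No gene passed the test between the obese ALA rats and either of the other obese groups. Limma called 0 of 10918 genes between ALA rats and obese controls, where 918 had an unadjusted p below 0.05 and the smallest adjusted p was 0.348, and 0 with array weights or a robust prior. Between ALA and LA rats it called 0 genes, where 758 had an unadjusted p below 0.05, and 1 when no dim gene was left out or every feature was tested. Against the same lean rats 192 genes (1.76%) were called in obese controls, 47 higher (0.43%) and 145 lower (1.33%). In LA rats 177 (1.62%) were called, 75 higher (0.687%) and 102 lower (0.934%). A call against lean in 1 obese group and not in another does not show that the groups differ. For Acad11 the difference was 1.09 in ALA rats, 0.86 in obese controls and 0.85 in LA rats, and for Angptl4 it was 2.52, 2.71 and 3.28.

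Leaving out ALA rat 3 changed which genes were called and their balance. Without it 114 genes were called, 53 higher and 61 lower, of which 81 were among the 97; 16 calls were lost and 33 gained. Beyond the lipid genes named above, the gains included Atp1b4, a protein related to ion pump subunits, at 0.98 (limma adjusted p = 0.00694), Myod1, the muscle transcription factor, at -0.82 (0.0206), and Ier3, an immediate early gene, at -0.92 (0.0379). For 67 of the 114 genes (58.8%), called from the other 15 rats, rat 3 lay nearer to the lean mean than to the mean of the other ALA rats. For each of the other ALA rats, held out in the same way, this share was between 3.85% and 40.2%, and lean rats lay nearer to the ALA mean in 3.92% to 36.7%. Over the genes tested, its median correlation with the other ALA arrays was 0.988, against 0.9881 to 0.9917 for the others.

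The genes in which ALA rat 3 was farthest below the mean of the other ALA rats were Angptl4 (-3.11), Lrrc30 (-2.15), Tfrc (-2.01), Atp1b4 (-1.88) and Ucp3 (-1.70). Tfrc encodes the transferrin receptor that takes up iron, at 7.87 in rat 3 against 9.69 to 10.32 in the other ALA rats. It was farthest above them in Cish (2.94), Socs2 (2.10), Ubxn10 (1.81), Mss51 (1.80) and Hs3st1 (1.72). Its slow-fibre levels were below every lean rat, at 9.09 for Myh7, 8.34 for Tnnt1, 7.34 for Tnnc1 and 9.30 for Atp2a2. Its Mc5r, at 5.92, was above every lean rat. The cause of the levels of rat 3 was not tested.

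**Figure D4:**
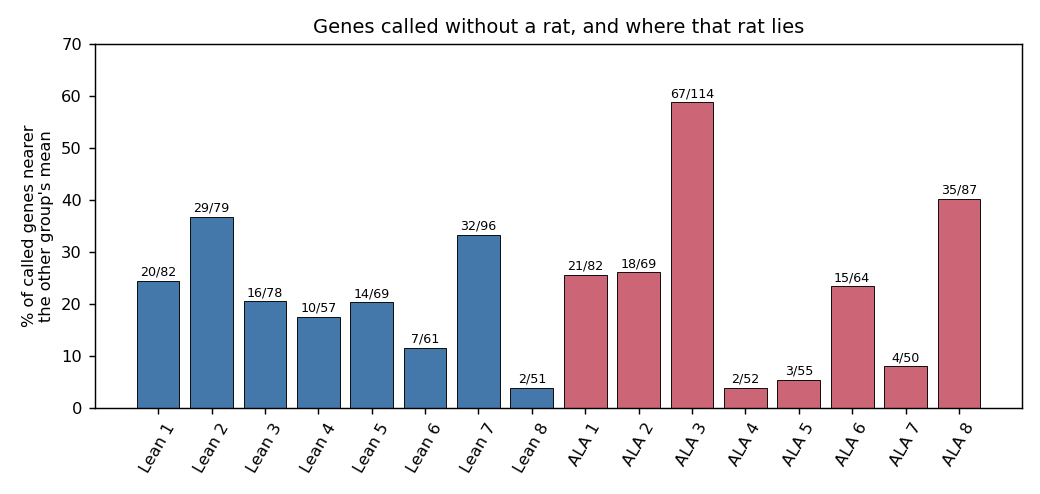
For each lean (blue) and ALA (red) rat, the share of genes (vertical, percent) called from the other 15 rats in which the rat left out lay nearer to the other group's mean. The numbers above the bars give the genes and their total; ALA rat 3 stands at 67 of 114 and ALA rat 8, the next, at 35 of 87.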

How the data were processed

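RNA was measured on 32 Affymetrix arrays, 1 per rat, each from 100 ng total RNA by GeneAtlas WT Plus labelling, per the labels. The deposited values are on a log2 scale and the authors used RMA, per the submitters' processing notes; its version and a genome build were not given in the sources used here. RMA corrects background, quantile-normalises the arrays and summarises probes by median polish, so the deposited values cannot show a change common to most genes, and differences of dim features are compressed. Values ran from 1.49 to 13.08 and array medians from 3.83 to 3.99, and no arrays were identical. The number of arrays limits the precision: the median SE of a difference was 0.0875.

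Of 36685 features, 14824 had 1 gene symbol in the platform annotation, 829 several and 21032 none. The feature with the highest mean over the 32 arrays was kept for each gene with 1 symbol (14557 genes), and the dimmest 25%, below 3.35, were left out. Group means were fitted in limma 3.58.1 (R 4.3.3) on all 4 groups with 28 residual degrees of freedom, and two-sided p-values were Benjamini-Hochberg adjusted per comparison. Gene counts and summaries were made with Python 3.11.15 and pandas 2.3.3, and figures with matplotlib 3.10.9. The fit was tested on simulated data.

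The comparison, the gene lists and the naming rule were chosen with earlier results of these data known. The rule names the 15 largest rises and falls among called genes and up to 4 called members of each of 27 pathway lists (or, where none was called, the 2 with the smallest p). It also names called members of 13 cell type lists (or, where none was called, the 2 with the highest mean level). Last, it names the 5 genes farthest each way in ALA rat 3. Genes outside it are marked in the text as chosen or grouped after their values were seen. Alternatives were other filters on dim genes, every feature, other scalings, a robust prior, a fit of the lean and ALA arrays alone, array weights, a replicate block and each array left out. Same-numbered rats' deviations from their group means correlated at -0.101 to 0.203, so the numbers were not taken as pairs. Promoters were those of RefSeq's GRCr8 annotation.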

Additional observations from a re-analysis of the deposited data

Results flagged for a closer look

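In groups of 8 rats, a rat was singled out where its gap to the nearest other rat was, as a share of the group's range, above the 95% critical value of Dixon's test. This held in 29 of 278 sets of values (10.4%), where chance alone gives about 1 in 20. Many of these values belong to ALA rat 3. It was the lowest of its group for Ucp3 (8.09), Pdk4 (10.46), Ech1 (10.18), Plin5 (7.07), Serpinh1 (6.76), Lrrc30 (6.35), Tfrc (7.87) and the mean of the PPAR targets (7.86). It was the highest for Cish (8.33), Socs2 (6.65), Des (12.11), Ubxn10 (5.63), Hs3st1 (7.37) and the means of the growth hormone list (6.96) and the clock list (7.34). The genes farthest from the group mean in this rat were picked for that distance, so their place here was partly set by the choice.

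Among the other ALA rats, rat 4 was the lowest in the slow-fibre mean (6.73), and rat 6 was the lowest for Lgals3 (5.1) and the highest for Nefl (4.96). Among lean rats, rat 5 was the highest for Otulinl (4.44) and Gpx1 (8.83) and the lowest for Nkg7 (3.48). Lean rat 6 was the highest for Hopx (7.6) and the lipid synthesis mean (6.55) and the lowest for Des (11.94). Lean rat 3 was the highest for Alox5ap (5.7) and lean rat 1 for Ppm1k (8.46). Lean rat 2 was the highest for Scx (6.05) and for the mean of the stress and regeneration genes (7.97), and the lowest for the glycolysis mean (9.62).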

How the results depend on the processing

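The 97 called genes (35 higher, 62 lower) numbered 313 with array weights (121 and 192), 252 with only the lean and ALA arrays (94 and 158) and 171 at an adjusted p below 0.1 (64 and 107). Without obese controls 4, 5 and 7 and LA rats 7 and 8, a fit added after the data were seen, they numbered 243 (87 and 156). The count fell to 81 with no filter on dim genes (32 and 49) and to 66 with every feature tested (27 and 39). It was 73 once quantile normalisation was repeated (36 and 37), 68 on median-centred arrays (29 and 39) and 89 with a robust prior (35 and 54). With the dimmest 50% left out it was 123 (41 and 82). No scaling moved the median of all genes by more than 0.02. Leaving out each lean or ALA array in turn gave 50 to 114 called genes, 23 to 53 higher and 27 to 68 lower. Of the 97 genes 42 were called in all 16 of these fits and 42 lost the call in at least 8, and among the 30 largest rises and falls these were 19 and 9. With the replicate number as a block 111 genes were called, 35 higher and 76 lower; as the numbers did not pair the rats, no gene is judged by it. Without ALA rat 3 and lean rat 2, also added afterwards, 108 were called. No called gene that the naming rule picks changed sign under these alternatives, among which single genes were not followed when every feature was tested. The called vessel genes grouped after their values were seen were followed only in the left-out fits, where none changed sign. The cause of these changes was not tested, beyond the fewer arrays or other threshold that define them. Dim genes, with signal near background, limit what can be detected.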
